A study of Drosophila melanogaster with 72 samples.

Results

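The polysome fraction and the total RNA of unmanipulated female Drosophila melanogaster were compared in the driver control line Lpp[TS]>w1118 at 15 d of age. The comparison rests on 4 of the 72 libraries of the study, 2 of total RNA and 2 of polysomes, picked by the line, age and fraction that their labels name. The question was which classes of mRNA are over- or under-represented on polysomes in a fly that carries no Lsp2 or Rheb construct, and whether transcript length goes with it. Frozen females were pulverised whole. Part of the powder gave total RNA, and the rest was separated on a sucrose gradient into a monosome and a polysome fraction. Poly(A) RNA of each was sequenced as paired ends. Lpp[TS] is written as a driver, named after the fat body lipoprotein gene Lpp, and the flies carry it together with w1118, a white-eyed reference strain. The 2 monosome libraries of the same line were used to show where transcripts missing from polysomes were found. Females of Lsp2[A10] and Lsp2[B14] at 15 d, with 3 replicates each and no Lpp[TS] in their labels, served to show where this line differs. A single count also drew on the same alleles together with Thor[2] at 15 d, in 3 replicates. It drew on the alleles alone at 2 to 3 d as well, also in 3 replicates. Lpp[TS]>Lsp2 and Lpp[TS]>Rheb at 15 d, with 2 replicates each, carry the driver with a construct. They were used only for ratios by line and in an alternative fit. How many flies went into a sample is not given in the labels.

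A polysome is an mRNA with several ribosomes on it, and a monosome is a single ribosome, with or without an actively translated mRNA. The number of ribosomes on an mRNA depends on how often initiation occurs, on how fast ribosomes move, and on how much coding sequence there is to hold them. Some mRNAs are held back from ribosomes by regulation. The best known are those with a terminal oligopyrimidine (TOP) start, which encode ribosomal proteins and translation factors and respond to the kinase complex mTORC1, and the localized mRNAs of the oocyte, which stay silent until they are anchored. mRNAs transcribed inside mitochondria are translated there by mitochondrial ribosomes.

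Total RNA libraries held 20.7 and 20.8 M counts (M, mega), monosome libraries 16 and 15.7 M, and polysome libraries 29.5 and 25.3 M. Every level below is in CPM, counts relative to the library's total, scaled with trimmed mean of M-values (TMM) factors over the 6 libraries, and is a share of its own library. Spearman correlations between replicates were 0.990 for total RNA, 0.993 for monosomes and 0.992 for polysomes, and chi-square per degree of freedom was 9.45, 6.38 and 22.1, above the 1 that counting alone gives. The tissue label was checked against marker genes. All 12 female reproductive tract and follicle cell markers, all 8 muscle markers, all 5 neuronal markers and all 7 midgut markers reached 1 CPM in at least 1 library, as did 7 of 9 fat body markers, without the larval genes Fbp1 and Fbp2. None of the 9 Y-linked genes reached 1 CPM, and their summed level was 0.455 to 1.34 CPM. Of 10 male accessory gland genes 5 reached 1 CPM, with a summed level of 3.15 and 4.13 CPM in total RNA, 4.14 and 8.77 CPM in monosomes and 6.92 and 6.76 CPM in polysomes.

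Of 11730 features tested, 2930 were higher and 3111 were lower in polysomes than in total RNA at an adjusted p under 0.05 (edgeR's quasi-likelihood test, Benjamini-Hochberg adjustment), which is 51.5% of the features, 25% higher and 26.5% lower. At least a 2-fold change (log2 change of 1) was reached by 723 of the higher and 1138 of the lower features, together 15.9%. The split between higher and lower depends on the scaling. With library totals alone, 4681 were higher and 1979 lower, because all log2 changes then moved up by 0.25. Changes below are given relative to the median of all features, which was 0.00 with the TMM factors. Polysome to total RNA changes quoted for library totals alone are printed as fitted. They are to be read against a median of 0.25. Since so many features passed the test, each class is given by its median beside its counts. The counts with TMM factors are to be read against the 25% higher and 26.5% lower of all features. Those with library totals alone are to be read against its 4681 higher and 1979 lower of 11730. With 2 libraries a side, an exact permutation test of a single value cannot go below p = 0.333, so no class median was tested. Instead each is given with its value in each replicate.

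Mitochondrially encoded mRNAs gave the lowest median of the 25 classes. All 13 were lower in polysomes, with a median log2 change of −4.06 (−3.74 in replicate 1 and −4.26 in replicate 2, relative to other features). mt:CoI, which encodes subunit I of cytochrome oxidase, stood at 18800 and 15700 CPM in total RNA, at 4790 and 4120 CPM in monosomes and at 2320 and 1520 CPM in polysomes. Total RNA and polysome libraries were thus far apart, with the monosomes between them, and the fitted change was −3.19 ± 0.22 (SE, adjusted p = 2.26e-05, edgeR). mt:Cyt-b, for cytochrome b, fell from 7250 and 5990 CPM to 480 and 252 CPM, a log2 change of −4.20 ± 0.40 (adjusted p = 0.00219, edgeR). mt:ND5, for a subunit of complex I, stood at 570 and 490 CPM in total RNA, 21.7 and 15.0 CPM in monosomes and 29.4 and 15.2 CPM in polysomes. Most of these mRNAs fell between total RNA and monosomes, with a median of −3.19 for that step and of −1.10 from monosomes to polysomes.

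RNAs that encode no protein did not move as one class. All 17 small nuclear RNAs tested had negative log2 changes, 14 of them passed the test, and their fitted median was −2.11. Relative to other features it was −0.99 and −1.08 in the replicates, where each ratio carries a pseudocount of 0.5 CPM. The libraries hold poly(A) RNA, so small nuclear RNAs without a poly(A) tail may be missing from these values. Of 1940 listed long noncoding and snoRNA host RNAs 259 passed the filter. Among these 73 were lower and 26 higher, with a median of −0.33. Over all features 26.5% were lower and 25% higher. With library totals alone 60 of the 259 were lower and 46 higher, against 1979 and 4681 of all 11730 features. lncRNA:CR40469 stood at 65.2 and 66.5 CPM in total RNA, 4.63 and 4.05 CPM in monosomes and 3.99 and 3.90 CPM in polysomes, a change of −4.09 ± 0.12 (adjusted p = 6.59e-09, edgeR). lncRNA:CR42862 went the other way, with 710 and 669 CPM in total RNA, 2830 and 2560 CPM in monosomes and 1190 and 1500 CPM in polysomes. It was higher in polysomes than in total RNA by 0.93 ± 0.12 (adjusted p = 8.38e-05, edgeR) and lower in polysomes than in monosomes by a log2 change of −1.0 (adjusted p = 6.93e-05, edgeR), so its libraries were highest in the monosome fraction. It overlaps the protein-coding gene CG33229, and the strand setting of the counting is not given in the sources used here, so reads of the 2 genes may not be separated.

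Among protein-coding genes, the shorter the annotated transcript, the higher was the polysome level relative to total RNA. The 320 genes with a median transcript length under 0.5 kb had a median log2 change of 0.83, and 50.6% of them were higher and 6.56% lower. The median fell to 0.42 at 0.5 to 0.75 kb (821 genes), 0.25 at 0.75 to 1 kb, 0.09 at 1 to 1.5 kb and −0.01 at 1.5 to 2 kb. Beyond 2 kb it was nearly level, from −0.13 at 2 to 3 kb to −0.19 at 6 to 10 kb. Up to 2 kb the bins had the same order in both replicates, and the size differed. Under 0.5 kb the median was 0.99 in replicate 1 and 0.41 in replicate 2. The difference between genes under 0.75 kb and genes of 4 kb and over was 0.71 in the fitted values, 0.87 in replicate 1 and 0.38 in replicate 2, and it was 0.45 without polysome replicate 1. Binned by coding sequence instead, the same difference was 0.43. Across 10755 genes Spearman's rho between transcript length and the log2 change was −0.28 (Pearson −0.23, on log2 length), given as a description because genes share their libraries.

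Splitting the ratio at the monosome fraction separated the ends of the length range. mRNAs under 0.5 kb were higher at each step, with a median change of 0.24 from total RNA to monosomes and 0.52 from monosomes to polysomes. At 0.5 to 0.75 kb the same medians were 0.02 and 0.38, and at 0.75 to 1 kb 0.04 and 0.19. In these 2 bins the rise thus lay mostly between monosomes and polysomes. The 97 genes over 10 kb were low in monosomes, with a median of −1.42 relative to total RNA and of 1.25 for polysomes relative to monosomes, and came back to a median of −0.16 for polysomes against total RNA. At 6 to 10 kb the same values were −0.55, 0.37 and −0.19, over 411 genes. Longer mRNAs were therefore scarce in the monosome fraction, and their polysome medians lay slightly below the median of all features. Against total RNA, 10.7% of genes of 6 to 10 kb were higher in polysomes and 38.7% lower. Over 10 kb these shares were 9.28% and 36.1%, against 25% and 26.5% of all features. In the comparison of polysomes with monosomes 1775 features were higher and 1263 lower of 11878 tested (14.9% and 10.6%, 25.6% in all). From total RNA to monosomes 2937 were higher and 3102 lower (24.7% and 26.1%, 50.8% in all). Without monosome replicate 1 or 2 the comparison of polysomes with monosomes called 1632 or 1729 features. Polysome and monosome changes share the monosome libraries, so they are given side by side and no correlation is drawn between them.

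**Figure D1:**
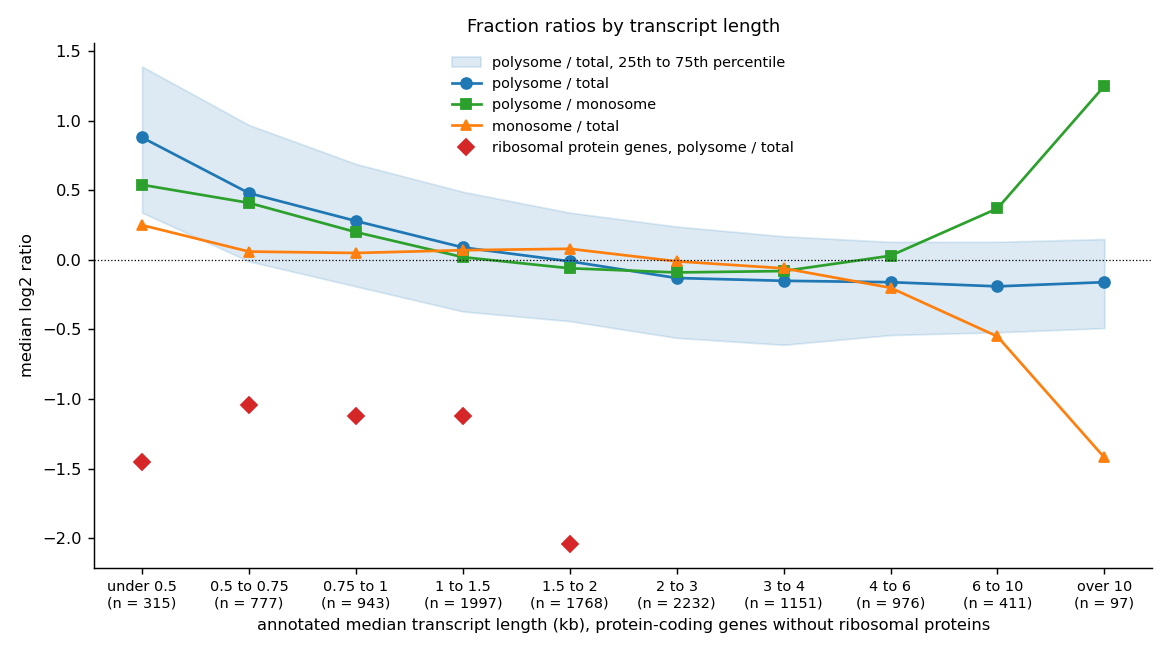
Median log2 ratio between fractions (y axis) in bins of annotated transcript length (x axis, kb, number of protein-coding genes in brackets), without ribosomal protein genes, which are shown as diamonds for polysome over total RNA. Circles fall from 0.88 under 0.5 kb to −0.16 over 10 kb, while the squares (polysome over monosome) rise to 1.25 and the triangles (monosome over total RNA) fall to −1.42 in the longest bin, and all diamonds lie below −1.

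Cytosolic ribosomal protein mRNAs were lower in polysomes although they are short. Of 88 tested, of 93 in the table, 82 were lower, 1 was higher and 5 did not pass the test. Their median log2 change was −1.11, and the middle of the class ran from −1.5 to −0.85 (25th and 75th percentile). Relative to other features the median was −1.05 in replicate 1 and −1.19 in replicate 2. The 44 ribosomal protein genes of 0.5 to 0.75 kb had a median of −1.04, against 0.48 for the 777 other genes of that length, and the 25 of 0.75 to 1 kb had −1.12, against 0.28 for 943 others. The larger part of the change lay between total RNA and monosomes (median −0.70), and a smaller part between monosomes and polysomes (median −0.37, with 58 of 87 lower). Their mRNAs are the textbook TOP class, and many of them host snoRNAs in introns.

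RpL41 encodes a very small ribosomal protein, with a coding sequence of 75 nt in a transcript of 320 nt. It stood at 7880 and 8460 CPM in total RNA, 5230 and 4530 CPM in monosomes and 2010 and 1380 CPM in polysomes. The libraries of the 3 fractions did not overlap, and the change from total RNA to polysomes was −2.3 ± 0.18 (adjusted p = 2.04e-05, edgeR). RpS29, of the small subunit, stood at 3770 and 3650 CPM in total RNA, 1090 and 1080 CPM in monosomes and 736 and 623 CPM in polysomes, a change of −2.48 ± 0.13 (adjusted p = 1.36e-07, edgeR). Its gene lies on 3R at 9778042 to 9779528 (BDGP6.54) and overlaps an annotated antisense RNA and a snoRNA. The 1 higher gene, RpLP0-like, at 106 and 104 CPM in total RNA and 189 and 180 CPM in polysomes (0.78 ± 0.09, adjusted p = 2.26e-05, edgeR), is listed for its name and is related to a ribosome assembly factor. RpS10a and RpL10Aa, the other extremes of the class, were at or under 1.54 CPM in every library.

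The remaining translation machinery split by role. Elongation factors were lower in 6 of 8 cases, with a median of −0.88. eEF1alpha1, which brings charged tRNA to the ribosome, stood at 15500 and 12900 CPM in total RNA, 8970 and 9320 CPM in monosomes and 5340 and 5110 CPM in polysomes (−1.47 ± 0.13, adjusted p = 4.89e-06, edgeR). eEF2, the translocation factor, changed by −0.83 ± 0.12 and eEF5, the hypusinated factor, by −1.63 ± 0.12. The 2 that were higher were eEF1delta at 0.39 and eEFSec at 0.43, the latter a selenocysteine factor. eEF1delta lost its call without total RNA replicate 2 (0.34), and eEFSec lost it when any of the 4 libraries was left out (0.38 to 0.50). The poly(A)-binding protein pAbp, whose mammalian counterpart is a TOP mRNA, stood at 2700 and 2730 CPM in total RNA, 1090 and 1140 CPM in monosomes and 746 and 786 CPM in polysomes, a change of −1.86 ± 0.11 (adjusted p = 3.58e-07, edgeR). It was listed with the initiation factors, of which 18 of 44 were lower and 6 higher, with a median of −0.23. eIF4EHP, a cap-binding repressor whose gene overlaps Syx1A and CG10694, was higher by 0.83 ± 0.09 (adjusted p = 2.03e-05, edgeR). eIF5 had the largest positive change of that list (1.42 ± 0.36) at under 4.2 CPM in every library, and it overlaps CG46312.

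The 35 aminoacyl-tRNA synthetases, which charge tRNAs, kept close to the median of all features (0.04), with 8 higher and 3 lower. Their extremes were CysRS-m, of mitochondria, at 0.67 ± 0.12 and GluProRS at −0.37 ± 0.09, which lost its call without total RNA replicate 1 (−0.26). Cytosolic translation factors and ribosomal proteins thus had low medians, and the enzymes that feed them did not. With library totals alone, where the median of all features was 0.25, the medians became −0.86 for ribosomal proteins and −0.63 for elongation factors. Initiation factors moved to 0.02, so all these classes stayed below that median. Of the initiation factors 12 were then higher and 10 lower, against 4681 and 1979 of all 11730 features.

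Nuclear genes of the mitochondria lay on the other side. Of 79 nuclear oxidative phosphorylation genes tested, 55 were higher and 4 lower, with a median of 0.69 (0.89 in replicate 1 and 0.51 in replicate 2). levy, a small subunit of cytochrome oxidase, stood at 317 and 305 CPM in total RNA, 837 and 727 CPM in monosomes and 1210 and 822 CPM in polysomes (1.68 ± 0.18, adjusted p = 0.000211, edgeR). ATPsynbeta, the catalytic subunit of the ATP synthase and a longer mRNA of 2026 nt, was lower, at 2030 and 1800 CPM against 1230 and 1170 CPM (−0.71 ± 0.11, adjusted p = 0.000287, edgeR). Of 72 mitochondrial ribosomal protein genes tested 45 were higher and 9 lower, with a median of 0.40. mRpL13 went from 26.7 and 23.8 CPM to 77.1 and 70.5 CPM (1.52 ± 0.10, adjusted p = 7.54e-07, edgeR). mRpS5 stood apart from its class at 190 and 215 CPM in total RNA, 24.7 and 24.6 CPM in monosomes and 23.8 and 24.7 CPM in polysomes (−3.10 ± 0.10, adjusted p = 1.49e-08, edgeR). The proteins of mitochondrial and cytosolic ribosomes therefore had medians of opposite sign at nearly the same transcript length, with list medians of 739.5 and 708.5 nt. Without cytosolic ribosomal proteins, the 777 genes of 0.5 to 0.75 kb had a median of 0.48. The mitochondrial class thus lay near the genes of its length, and the cytosolic class did not.

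Proteasome subunits, which form the protease that degrades ubiquitinated proteins, were higher in 22 of 34 cases and lower in 2, with a median of 0.41 that was 0.37 and 0.43 in the replicates. Rpn8, of the regulatory particle, went from 168 and 168 CPM to 322 and 378 CPM (1.03 ± 0.10, adjusted p = 1.39e-05, edgeR), and Prosalpha4, of the core, was lower by −0.76 ± 0.10. The median transcript length of this class was 1398.5 nt, in a length bin whose own median change was 0.09. Of 126 histone genes, 10 passed the filter in these libraries of poly(A) RNA, and 4 were higher and 1 lower. His3.3A, a replacement histone, was higher by 0.86 ± 0.09 and its sister gene His3.3B, which has the longer annotated transcript (1528 against 848 nt), was lower by −0.40 ± 0.10, a call lost without total RNA replicate 1 (−0.34) and with library totals alone (−0.15).

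**Figure D2:**
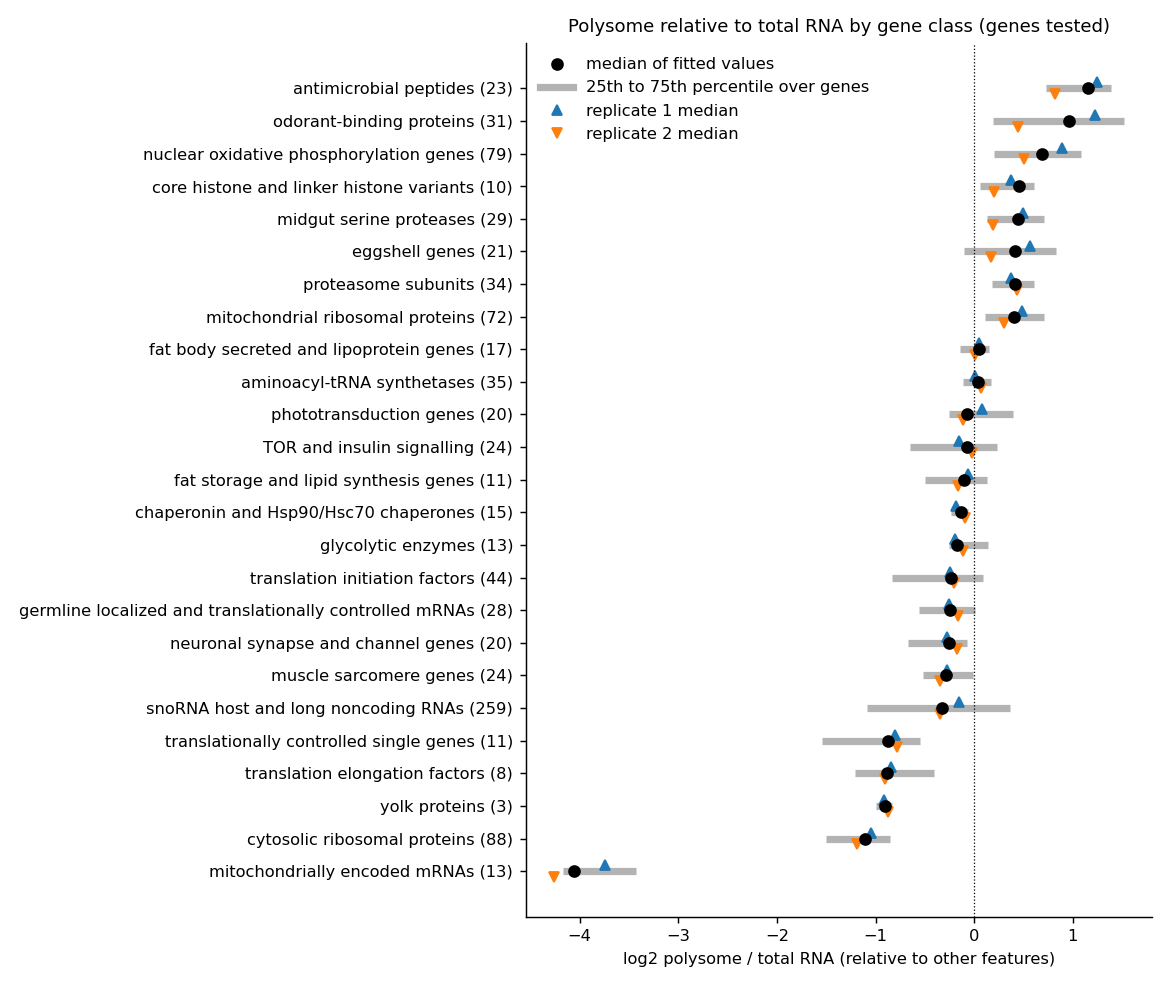
Log2 polysome over total RNA (x axis) for 25 gene classes (y axis, number of genes tested in brackets), with the median of the fitted values as a black dot, the 25th to 75th percentile over genes as a grey bar, and the median relative to other features in each replicate as triangles. Mitochondrially encoded mRNAs lie at −4.06 and ribosomal proteins at −1.11, while antimicrobial peptides lie at 1.16, with replicate 1 above replicate 2 in the short secreted classes.

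Antimicrobial peptides and odorant-binding proteins, both classes of small secreted proteins, had the highest class medians. Of 23 antimicrobial peptide genes tested, of 33 in the table, 15 were higher and 1 lower. Their median was 1.16 (1.25 and 0.82 in the replicates), with a median transcript length of 387 nt. The 315 genes under 0.5 kb other than ribosomal proteins had a median of 0.88. Drs encodes the antifungal peptide drosomycin on 3L at 3369556 to 3369942 (BDGP6.54). It stood at 327 and 244 CPM in total RNA, 230 and 248 CPM in monosomes and 1000 and 760 CPM in polysomes (1.6 ± 0.18, adjusted p = 0.000254, edgeR). Its monosome and total RNA libraries overlapped, and both polysome libraries lay above all others. The class as a whole had a median of −0.12 from total RNA to monosomes and 1.31 from monosomes to polysomes. AttC, an attacin, was the 1 lower gene (−0.53 ± 0.21, adjusted p = 0.0475, edgeR), and its call was lost without total RNA replicate 2 (−0.31) or polysome replicate 2 (−0.40). Dso1, which encodes a short immune-induced peptide from a coding sequence of 126 nt, was at 296 and 256 CPM in total RNA and 1600 and 1140 CPM in polysomes (2.28 ± 0.17, adjusted p = 1.67e-05, edgeR).

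Odorant-binding proteins, secreted carriers of small molecules, were higher in 15 of 31 cases and lower in 2, with a median of 0.96 that was 1.23 in replicate 1 and 0.45 in replicate 2. Obp19a went from 5.92 and 8.11 CPM to 34.0 and 24.3 CPM (2.02 ± 0.22, adjusted p = 0.000135, edgeR), and Obp57b from 34.0 and 27.7 CPM to 22.1 and 13.5 CPM (−0.82 ± 0.25, adjusted p = 0.0417, edgeR). The call of Obp57b was lost without either total RNA library (−0.67 and −0.94). Midgut serine proteases were higher in 7 of 29 cases and lower in none, a share close to the 25% of all features, with a median of 0.45. Eggshell genes had a median of 0.41 with replicates at 0.57 and 0.17, and 4 of 21 were higher and 2 lower. Cp16, a chorion protein, went from 3.80 and 5.48 CPM to 21.7 and 15.1 CPM (1.96 ± 0.24, adjusted p = 0.000189, edgeR). Cp18 did not pass the test, and its replicates differed, with 12.2 and 2.12 CPM in total RNA and 47.3 and 8.82 CPM in polysomes.

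The 12 largest rises among protein-coding genes that averaged at least 10 CPM were nearly all short. They comprised Cpr65Ea and TwdlD, both structural cuticle proteins, Dso1, Obp19a, Cp16 and 7 genes known by number only, with annotated transcripts from 279 to 965 nt. Cpr65Ea stood at 9.08 and 4.80 CPM in total RNA, 17.7 and 14 CPM in monosomes and 52.0 and 48.8 CPM in polysomes (2.84 ± 0.25, adjusted p = 0.000324, edgeR). TwdlD, with a change of 2.39, lost its call without either polysome library (2.3 and 2.52). The 12 largest falls comprised 8 mitochondrially encoded mRNAs and osk, Hsp70Bb, CG33217 and Sf3b3. Hsp70Bb, a heat shock chaperone with near-identical gene copies among which reads may be split, went from 70.5 and 57.8 CPM to 4.12 and 5.04 CPM (−3.84 ± 0.14, adjusted p = 2.26e-08, edgeR). Sf3b3, a splicing factor subunit whose gene hosts snoRNAs, went from 92.7 and 83.2 CPM to 5.91 and 11.2 CPM (−3.40 ± 0.32, adjusted p = 0.0021, edgeR).

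Maternal germline mRNAs under known translational control included some of the lowest polysome levels. Of 28 tested, 13 were lower and 3 higher, with a median of −0.24 (−0.25 and −0.16 in the replicates, relative to other features). With library totals alone, which moved all features up by 0.25, 8 were lower and 8 higher. Of all 11730 features 1979 were then lower and 4681 higher. osk, which assembles the germ plasm and is repressed until its mRNA reaches the posterior pole of the oocyte, lies on 3R at 8935126 to 8938395. It stood at 130 and 112 CPM in total RNA, 6.61 and 8.70 CPM in monosomes and 6.07 and 8.68 CPM in polysomes, a change of −4.07 ± 0.16 (adjusted p = 6.08e-07, edgeR). It was low in both ribosomal fractions and did not differ detectably between them (−0.06, adjusted p = 0.862, edgeR). The osk locus overlaps an annotated noncoding and an antisense RNA.

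bcd, the anterior morphogen, whose mRNA is stored in the oocyte and translated after egg activation, stood at 47.9 and 64.8 CPM in total RNA, 10.6 and 9.07 CPM in monosomes and 9.84 and 10.6 CPM in polysomes (−2.50 ± 0.17, adjusted p = 8.76e-06, edgeR). At the other end plu, a small protein of the cell cycle switch at egg activation, was higher by 0.59 ± 0.09 and tral, a component of cytoplasmic RNP granules, by 0.52 ± 0.12, the latter not called without total RNA replicate 2 (0.45). The 3 yolk proteins, which the fat body and follicle cells secrete for the oocyte, were all lower. Yp1 stood at 9340 and 8500 CPM in total RNA, 6860 and 7940 CPM in monosomes and 5020 and 4750 CPM in polysomes (−0.90 ± 0.12, adjusted p = 7.93e-05, edgeR), Yp2 changed by −0.77 and Yp3 by −1.09.

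Single genes known for translational control in flies or other animals were mostly low on polysomes, with 8 of 11 lower and 2 higher. crc, the fly ATF4, whose mRNA carries upstream open reading frames, had the lowest value, at 350 and 334 CPM in total RNA, 91.9 and 85.6 CPM in monosomes and 39.9 and 49.9 CPM in polysomes (−2.96 ± 0.12, adjusted p = 2.53e-08, edgeR). Each fraction lay below the one before it. Oda, the ornithine decarboxylase antizyme made by frameshifting, stood at 1250 and 1270 CPM in total RNA, 366 and 341 CPM in monosomes and 411 and 361 CPM in polysomes (−1.74 ± 0.11, adjusted p = 6.24e-07, edgeR). The cell death gene hid changed by −1.78 ± 0.18.

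The same list held genes of sex determination and dosage compensation. Sxl protein, present in females, represses the translation of msl-2 mRNA there, so that dosage compensation stays off. msl-2 stood at 9.51 and 9.40 CPM in total RNA, 7.63 and 7.91 CPM in monosomes and 5.29 and 5.40 CPM in polysomes (−0.85 ± 0.19, adjusted p = 0.00251, edgeR). Its polysome libraries lay below the other 4. Sxl itself went from 249 and 264 CPM to 95.6 and 110 CPM (−1.35 ± 0.10, adjusted p = 1.78e-06, edgeR). tra, a target of Sxl in splicing, was higher by 0.66 ± 0.12 and tra2 lower by −0.95 ± 0.11. The autophagy genes Atg1 and ref(2)P were lower by −0.57 and −0.54. rpr did not pass the test (−0.87 ± 0.49) and stayed under 1 CPM.

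Among TOR and insulin signalling genes 10 of 24 were lower and 6 higher, with a median of −0.07. With library totals alone 8 were lower and 12 higher, against 1979 and 4681 of all 11730 features. Thor, the repressor of cap-dependent initiation that mTORC1 inactivates, was the highest, at 254 and 206 CPM in total RNA, 285 and 283 CPM in monosomes and 473 and 407 CPM in polysomes (0.91 ± 0.12, adjusted p = 8.29e-05, edgeR). raptor, a core subunit of mTORC1, was the lowest, at 60.9 and 57.2 CPM in total RNA, 17.5 and 16.5 CPM in monosomes and 11.6 and 14.6 CPM in polysomes (−2.20 ± 0.12, adjusted p = 2.11e-07, edgeR). The small GTPase Rheb, which activates mTORC1, changed by −0.28 ± 0.09 (adjusted p = 0.018, edgeR), a call lost without polysome replicate 1 (−0.19) or either total RNA library (−0.25 and −0.30) and with library totals alone (−0.03). Lsp2, a storage protein of the larval fat body, stood at 5.05 and 5.63 CPM in total RNA and 5.94 and 6.03 CPM in polysomes and did not pass the test (0.13 ± 0.21, adjusted p = 0.619, edgeR).

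**Figure D3:**
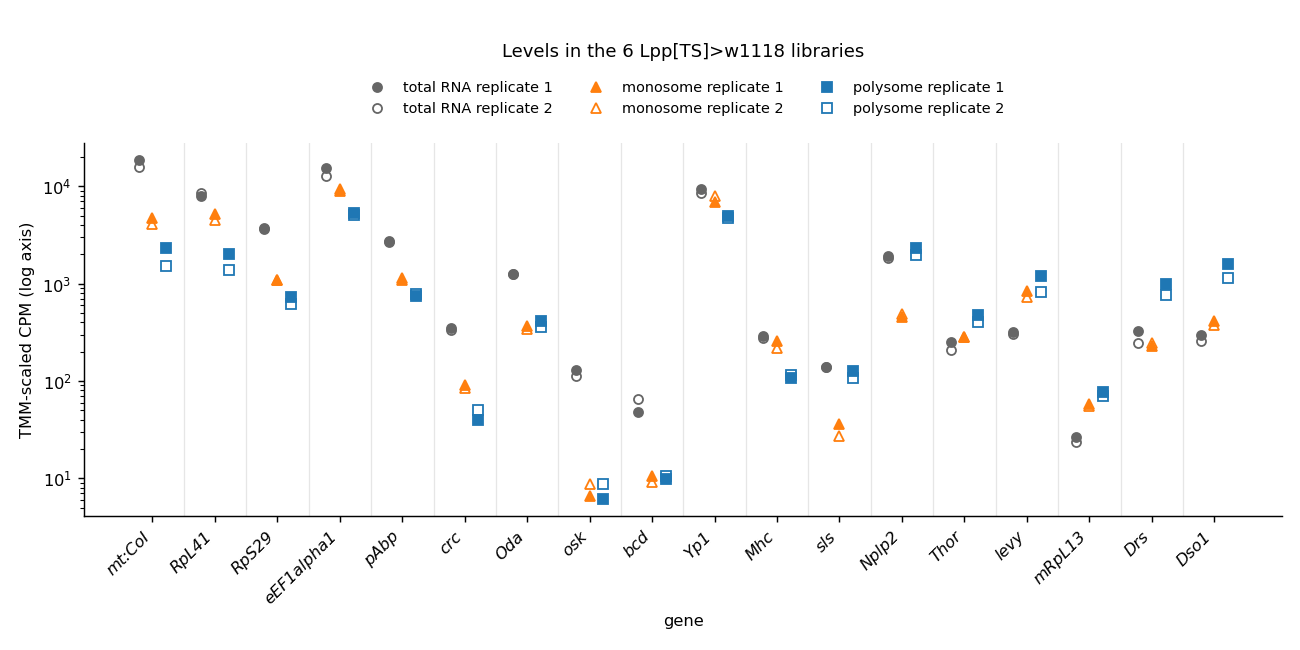
TMM-scaled CPM (log axis) of 18 genes named in the text (x axis) in the 6 Lpp[TS]>w1118 libraries, with filled symbols for replicate 1 and open symbols for replicate 2. Total RNA lies above polysomes from mt:CoI to Mhc and below them from Thor to Dso1, and in sls and Nplp2 the monosome libraries are the low ones.

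The neuronal class had a median transcript length of 5419 nt. The sarcomere class, at 1683.5 nt, was shorter but included sls. In RNA of whole flies, fewer cells of a type and less RNA per cell cannot be told apart, and the ratios below compare fractions of such flies. Of 24 sarcomere genes 12 were lower and 1 higher, with a median of −0.29. With library totals alone 6 were lower and 5 higher, against 1979 and 4681 of all 11730 features. Mhc, the myosin heavy chain, stood at 291 and 275 CPM in total RNA, 255 and 216 CPM in monosomes and 107 and 116 CPM in polysomes (−1.37 ± 0.09, adjusted p = 8.01e-07, edgeR). sls, the fly titin with a median annotated transcript of 48944 nt, lies on 3L at 2039681 to 2115611. It stood at 139 and 138 CPM in total RNA, 35.8 and 27.4 CPM in monosomes and 128 and 108 CPM in polysomes. Monosome libraries lay below all others, and the change was −0.26 ± 0.10 from total RNA to polysomes (adjusted p = 0.0448) but 1.90 from monosomes to polysomes (adjusted p = 7.12e-06, edgeR). The first of these calls was lost without either total RNA library (−0.27 and −0.25), without polysome replicate 2 (−0.11) and with library totals alone (−0.01).

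Synaptic and channel genes had a median of −0.25 for polysomes against total RNA, with 7 of 20 lower and 2 higher. With library totals alone 6 were lower and 3 higher, against 1979 and 4681 of all 11730 features. Their median for polysomes against monosomes was 0.53, with 12 of 20 higher and none lower, against 14.9% and 10.6% of all features. futsch, a microtubule-associated protein with an annotated transcript of 20736 nt, was at 18.4 and 18.3 CPM in total RNA, 11.2 and 9.13 CPM in monosomes and 35.4 and 32.4 CPM in polysomes (0.86 ± 0.11, adjusted p = 8.29e-05, edgeR). Snap25, a short coding sequence for a synaptic fusion protein, was lower by −1.49 ± 0.16 with 23.6 and 27.8 CPM in total RNA, 3.84 and 5.52 CPM in monosomes and 10.3 and 8.38 CPM in polysomes. Of 20 phototransduction genes 6 were higher and 5 lower, shares near the 25% and 26.5% of all features. The main rhodopsin, ninaE, went from 2500 and 2930 CPM to 910 and 1070 CPM (−1.49 ± 0.13, adjusted p = 5.5e-06, edgeR), while the channel trp was higher by 0.59 ± 0.10 and the rhodopsin chaperone ninaA by 1.11 ± 0.18.

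Metabolic and fat body classes lay near the median of all features, of which 25% were higher and 26.5% lower. Glycolytic enzymes had a median of −0.17, with 3 of 13 lower and 1 higher, and the lowest was the aldolase Ald1 (−0.83 ± 0.11). Chaperonin and Hsp90/Hsc70 chaperones had a median of −0.13, with 4 of 15 lower and 1 higher. Of 11 fat storage and lipid synthesis genes 5 were lower and 1 higher, the latter the triglyceride lipase bmm (0.54 ± 0.10) and the lowest the desaturase Desat1, from 1310 and 1080 CPM to 520 and 437 CPM (−1.35 ± 0.13, adjusted p = 8.21e-06, edgeR). With library totals alone the medians of these 3 classes were 0.09, 0.12 and 0.15, below the 0.25 of all features. Of 17 fat body secreted and lipoprotein genes 3 were lower and 1 higher, among them apolpp, the lipophorin precursor (−0.58 ± 0.11), and Fer2LCH, a ferritin light chain (0.43 ± 0.10), whose call was lost without total RNA replicate 2 (0.41). Nplp2, on 3L at 13356376 to 13357223, did not differ detectably between polysomes and total RNA (0.16 ± 0.12, adjusted p = 0.293, edgeR), yet stood at 1930 and 1840 CPM in total RNA, 453 and 486 CPM in monosomes and 2340 and 1950 CPM in polysomes. Its polysome level exceeded its monosome level by 2.19 log2 units (adjusted p = 1.17e-07, edgeR), with a transcript of only 452 nt. The small difference from total RNA passed the test without polysome replicate 2 (0.31) and with library totals alone (0.41).

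The polysome to total RNA ratio of this line was then set against that of 15 d Lsp2[A10] and Lsp2[B14] females. The ratio differed for 5253 of 11261 genes present in both tables (46.6%), 2770 with a higher ratio in Lpp[TS]>w1118 (24.6%) and 2483 with a lower one (22%, edgeR interaction term, Benjamini-Hochberg adjustment). With library totals alone 4717 were higher and 1388 lower. The lines are in separate tables, so that line and table cannot be told apart. Ribosomal proteins had a median ratio, relative to other genes, of −1.04 and −1.17 in the 2 Lpp[TS]>w1118 pairs and of 0.34 to 1.38 in the 6 pairs of the alleles. The means were −1.10 ± 0.09 (SD, n = 2) and 0.88 ± 0.41 (SD, n = 6). An exact permutation test, two-sided, gave p = 0.0714, the smallest that 2 against 6 pairs allow. The value after adjustment over 5 classes was also 0.0714. The 6 pairs come from 2 lines, Lsp2[A10] at 0.34, 0.50 and 0.80 and Lsp2[B14] at 1.15, 1.38 and 1.14. The SD and the test, here and for the other classes below, pool the 2 lines, so differences between lines and between replicates are mixed. All 6 pairs of the Lpp[TS] table, 4 of them with a construct, had a negative ribosomal protein value (−1.28 to −0.36). The allele tables hold 18 pairs, from both alleles at 15 d, both together with Thor[2] at 15 d and both at 2 to 3 d, and 17 of them had a positive one.

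The other 4 class ratios compared in this way gave the same smallest p. Antimicrobial peptides stood at 1.14 ± 0.30 (SD, n = 2) in Lpp[TS]>w1118 and at 3.29 ± 0.35 (SD, n = 6) in the alleles. The difference between transcripts under 0.75 kb and those of 4 kb and over, without ribosomal proteins, was 0.68 ± 0.39 against 2.50 ± 0.45, and the median of genes under 0.5 kb was 2.34 in the fit of the alleles. Mitochondrially encoded mRNAs stood at −4.0 ± 0.39 against −1.76 ± 0.69 and germline mRNAs at −0.18 ± 0.06 against −1.0 ± 0.10. Short mRNAs were thus higher on polysomes in both sets of lines, and ribosomal proteins had opposite signs.

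**Figure D4:**
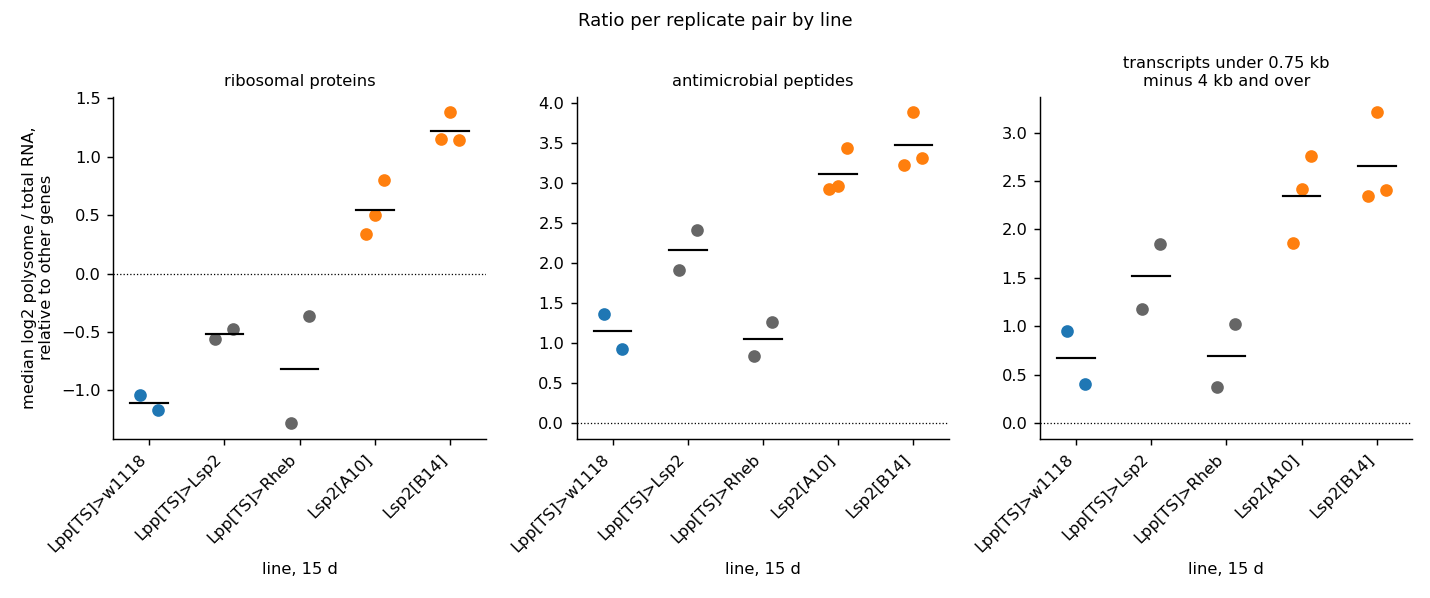
Median log2 polysome over total RNA relative to other genes (y axis) for each replicate pair (points) of the 15 d lines without Thor[2] (x axis), with a bar at each line's mean. Ribosomal proteins lie at −1.04 and −1.17 in Lpp[TS]>w1118 and at 0.34 to 1.38 in the 2 alleles, while antimicrobial peptides and short transcripts are above 0 in every pair.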

How the data were processed

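The authors deposited raw read counts per gene, one table for the Lpp[TS] lines and 2 for the Lsp2 alleles. Per the submitters' processing notes, fastp, Bowtie2, STAR and featureCounts were used with the BDGP6 genome. The annotation and the strand setting are not given in the sources used here. Where a named gene overlaps another annotated gene, stated above or not, their reads may not be separated. All columns were tied to samples by their names, and 0 columns were left without one. The Lpp[TS] table held 23932 features, of which 23851 matched the BDGP6.54 annotation used for symbols, biotypes and lengths. Transcript length is the median over a gene's annotated transcripts.

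Counts of the 4 libraries were fitted in edgeR 4.0.16 (R 4.3.3) with TMM scaling, the default expression filter and robust quasi-likelihood. Standard errors come from the F statistic. Monosome comparisons used all 6 libraries of the line, and the comparison with the alleles used an interaction term over 16 polysome and total RNA libraries. Fitted log2 changes use a prior count of 0.125, and ratios per replicate a pseudocount of 0.5 CPM. The fits were also run on simulated counts in which few features changed, in equal numbers up and down. Their dependence on the scaling was therefore not checked in this way. The design text calls the replicates biological but does not say whether flies came from separate cultures, so p-values measure the spread between these samples. Without molecular identifiers, PCR copies are counted like separate molecules.

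Groups follow the line, age and fraction that the labels give. The classes, the comparison and the rule for named genes were chosen with earlier results of these data known. The rule took the 12 largest rises and falls among protein-coding genes at 10 CPM or more with no overlap between fractions, the 2 highest and 2 lowest and the highest total RNA level of each class, any member of a class of up to 12, and msl-2, Lsp2, Rheb, Thor, RpL41 and sls. Alternatives were other scalings, filters, sample sets, DESeq2 1.42.0, a replicate block, other length measures and leaving out each library.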

Additional observations from a re-analysis of the deposited data

Results flagged for a closer look

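The polysome to total RNA ratio differed between Lpp[TS]>w1118 and the 15 d Lsp2 alleles for 5253 genes by the interaction term (edgeR, adjusted p under 0.05). The ribosomal protein ratio was lower in Lpp[TS]>w1118 by a difference of −1.99 log2 units. Values were negative in 2 of 2 pairs and positive in 6 of 6 pairs of the alleles, which come from 2 lines. An exact permutation test of 2 against 6 pairs gave the smallest p that it allows (0.0714). Among the named genes at 10 CPM or more whose difference was called, the most negative differences were those of mt:ND4 (−2.74, adjusted p = 0.0177, edgeR), mt:ND5 (−2.63, adjusted p = 0.0413, edgeR) and RpL41 (−2.57, adjusted p = 3.98e-07, edgeR). The most positive were those of osk (1.76, adjusted p = 0.00126, edgeR), Atg1 (1.37, adjusted p = 0.000438, edgeR) and, at the same rounded value, tra2 (1.07, adjusted p = 6.37e-05, edgeR) and Hsp83 (1.07, adjusted p = 1.57e-05, edgeR). The line and the table cannot be told apart in any of them. Groups of 2 libraries are too small to look for a sample that stands apart.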

How the results depend on the processing

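For the counts of called features, the median of ribosomal proteins and the length difference, the main shifts and the ranges without 1 library were these. The number of classes above the median stayed at 10 or 11 in every setting. The count for polysomes against total RNA (6041) was 2859 in a fit of the 12 polysome and total RNA libraries of the 3 Lpp[TS] lines and 1861 with at least a 2-fold change required, and 4465 to 5791 without 1 library. The count for polysomes against monosomes (3038) was 1632 to 2753 without 1 library. The other counts without 1 library were 4727 to 5275 for monosomes against total RNA and 4021 to 4502 for the difference from the alleles. DESeq2 called 5194 features in polysomes against total RNA. The ribosomal protein median ran from −1.16 to −1.06 and the length difference from 0.45 to 0.86 without 1 library. The 2-fold requirement and the length difference without ribosomal protein and mitochondrial genes (0.74) were added after seeing the data.

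For the 154 named genes, 1270 of 1360 values under other settings and 553 of 613 values without 1 library kept the call. Neither alphaTry nor Lpin was called in the full fit. alphaTry was called lower without polysome replicate 1 (−0.28, against 0.61 without polysome replicate 2). Lpin was called higher with library totals alone (0.23), a scaling that moves all values up alike, so that other small negative values turned sign there too. In the fit of 12 libraries Cpr65Ea, TwdlD, Yp1, Yp2, Yp3, trp, apolpp and Atg1 were among those not called. For the medians of the 25 classes, 213 of 224 values under other settings stayed within the SD over replicates, and 11 moved beyond it. Without 1 library 72 of 100 values stayed within it, 27 moved beyond it and 1 changed sign. The median of fat body secreted genes ran from −0.01 without polysome replicate 1 to 0.13 without polysome replicate 2. That of proteasome subunits was 0.22 with no low-count filter. The causes were not tested.

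Replicates of different fractions share a number, and the labels do not say that it marks shared flies. Their deviations correlated by 0.12 between polysome and total RNA, 0.25 between polysome and monosome and 0.21 between monosome and total RNA. With a replicate block 6294 features were called in polysomes against total RNA, 3542 against monosomes, 6407 in monosomes against total RNA and 5107 in the difference from the alleles, and Cp18 was called (1.97).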

Other observations

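Transposable element features were not part of any class above. Of 5576 annotated insertions 264 passed the filter, and 49 were higher and 37 lower in polysomes than in total RNA. Both shares were below those of all features (25% and 26.5%). The median log2 change was 0.41 (0.47 in replicate 1 and 0.06 in replicate 2 relative to other features). Reads of near-identical insertions may be split among them. snoRNAs, which are processed from introns, showed a different order of fractions from mRNAs. In the 51 tested, the median was 0.95 from total RNA to monosomes and −1.24 from monosomes to polysomes, with 18 of 50 lower in that step and none higher, against 10.6% lower among all features. Most snoRNAs lie inside host genes, whose reads may be counted with them. As the libraries hold poly(A) RNA, snoRNAs without a poly(A) tail may be missing from these values.

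The length of the annotated untranslated region after the coding sequence varied with the ratio as well. Genes with under 50 nt had a median log2 change of polysomes over total RNA of 0.23 (610 genes), those of 400 to 800 nt −0.15 (1928 genes) and those of 800 to 1600 nt −0.26 (1130 genes). Across genes Spearman's rho was −0.24 for this region and −0.18 for the region before the coding sequence, over 10755 genes that share their libraries. Both lengths go with transcript length, and their separate parts were not tested.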
